A study of Saccharomyces cerevisiae with 11 samples.

Results

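The genes of amino acid biosynthesis, apart from those of the sulfur amino acids, were followed in the yeast Saccharomyces cerevisiae as growth slowed almost to a stop. A gene was taken when its symbol was among 58 named enzymes of 9 pathways and a probe set carried that symbol alone. All 58 had such a probe set, out of 5656 genes in all. The pathways were those of arginine (5 genes), histidine (7), the branched-chain amino acids leucine, isoleucine and valine (11), lysine (7), the aromatic amino acids (13), threonine and its precursor homoserine (5), asparagine (2), serine and glycine (5) and proline (3). The 11 arrays came from strain CEN.PK113-7D, a laboratory prototroph of genotype MATa MAL2-8c SUC2 that makes every amino acid itself, and all cultures were anaerobic, on synthetic medium and limited by glucose. The reference group was 3 independent chemostats growing at 0.025 per hour, vessels in which medium flows in and culture flows out at the same rate. The other groups were 2 independent retentostats sampled after 2, 9, 16 and 22 days, when they grew at 0.0084, 0.0024, 0.0011 and 0.00063 per hour. In a retentostat a filter keeps the cells in while medium still flows, so each day is represented by 2 arrays and the 4 days come from the same pair of cultures.

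Yeast builds most amino acids from a few intermediates of central carbon metabolism. Aspartate gives asparagine, threonine and methionine, glutamate gives arginine and proline, pyruvate gives the branched-chain amino acids, and 3-phosphoglycerate gives serine. The aromatic ring is made from erythrose 4-phosphate and phosphoenolpyruvate, and histidine is built on a phosphorylated ribose also used for nucleotides. Lysine is made in fungi from 2-oxoglutarate by way of aminoadipate. Many of these genes answer together to the activator Gcn4, whose protein is controlled mainly at translation, and single pathways also have their own regulators.

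No member fell to the lowest value used, an intensity of 12, on any array. The lowest reading was 20.8, for HIS6, and 56 of the 58 members had a mean of at least 50. The label of a prototroph was checked with HIS3, LEU2, TRP1, URA3, LYS2 and MET17, genes that auxotrophic laboratory strains often lack. All 6 gave signal on every array, and URA3, for one, stood between 52.8 and 85.8. Arrays were scaled to nearly the same trimmed mean, 298.82 to 299.91, so an intensity is a share of the RNA on that array. Fewer cells with a transcript and less of it per cell cannot be told apart, and a loss of RNA common to all genes would not be seen. The median gene stood above the chemostats by a log2 value of 0.04 after 2 days, 0.06 after 9, 0.14 after 16 and 0.23 after 22. Changes below are log2 differences relative to that median, with their standard errors, while the tests were made on the values as deposited. An actin signal ratio (5′ over 3′ end), which drops when RNA is broken or copied short, was 0.766 to 0.796 in the chemostats. On the 4 arrays of days 2 and 9 this ratio ranged from 0.669 to 0.748, the arrays of day 16 gave 0.736 and 0.472, and those of day 22 gave 0.571 and 0.341.

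At day 2, 0 of the 58 members passed the test against the chemostats in limma at an adjusted p of 0.05, where 1.05% of all genes were called higher and 0.5% lower. At an unadjusted p under 0.05, 19 members were lower and 0 higher, beside 913 of all 5597 genes in either direction. The median member stood at -0.42. At day 9, 38 members (65.5%) had fallen and 2 had risen, against 15.6% and 22.4% of all genes. At day 16 these numbers were 28 (48.3%) and 2, against 12.8% and 26.6%. At day 22 they were 32 (55.2%) and 3, against 10.8% and 31.8%. From day 9 on, a larger share of the members than of all genes was lower, and a smaller share was higher. The median change of the 58 was -0.88, -0.73 and -0.95 on those 3 days, and 55 of 58 lay below the median gene at day 22. The 4 comparisons share the 3 chemostats, so they are not independent of each other.

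**Figure D1:**
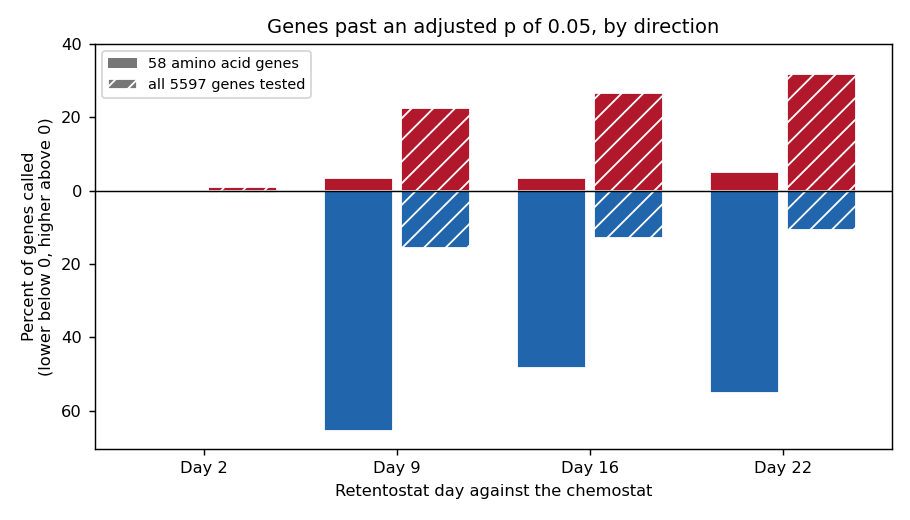
Percent of genes called lower (blue, below 0) and higher (red, above 0) than the chemostats at each retentostat day, for the 58 amino acid genes (plain bars) and all 5597 genes tested (hatched bars). From day 9 on the amino acid genes have the longer blue bar and the shorter red bar, 55.2% lower against 10.8% of all genes at day 22, while at day 2 none of them was called.

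The share of all genes called lower depends on the scaling. With quantile normalization at day 22 it was 19.7%, with 20.7% higher, and with arrays scaled to 1 median it was 19.8%, with 18.3% higher. In those fits 44 members were lower each time, and 1 and 2 were higher. The count at day 22 also moved in fits that took the actin ratio into account. Every retentostat array had a lower ratio than every chemostat, so the ratio and the group cannot be told apart. Without the 2 arrays of lowest ratio, 1 each from days 16 and 22, 14 members (24.1%) were called at day 22 beside 21.3% of all genes, and with the ratio as a covariate 5 (8.62%) beside 9.92%. Those 5 were ASN1, LEU1, ILV2, ILV5 and GLY1, of which 4 were lower and 1 higher. The shares in both fits count higher and lower genes together. All genes were not split by direction there, so these shares cannot be set beside the lower shares above. The median change of the 58 at day 22 was -0.91 and -0.74 in these fits. At day 9, where the ratio was 0.669 and 0.734, the same fits called 37 and 38 members, against 40 in all as first tested. Single arrays mattered as well. Without replicate 1 of day 9 the median change of the 58 at that day was -0.60, and without replicate 2 it was -1.17. At day 16 it was -0.81 without replicate 1 and -0.67 without replicate 2, and at day 22 it was -0.98 and -0.91. The number of members called moved too, as did the share of all genes called.

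In 36 of the 58 members every one of the 8 retentostat arrays lay below all 3 chemostats, an arrangement found in 8.97% of all genes. The median of the 58 on each array, relative to the chemostat mean, lay between -0.06 and 0.05 in the chemostats. In the retentostats it stood at -0.30 and -0.48 after 2 days, -1.17 and -0.60 after 9, -0.67 and -0.81 after 16, and -0.91 and -0.98 after 22. The first retentostat array of day 9 was thus the lowest of all, and its partner lay near the arrays of day 16. On that day 48 of the 58 members were lower in replicate 1, and the median absolute difference between the replicates was 0.60 for members but 0.29 for all genes. At the other days it was 0.18 to 0.25, close to the 0.20 to 0.21 of all genes.

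**Figure D2:**
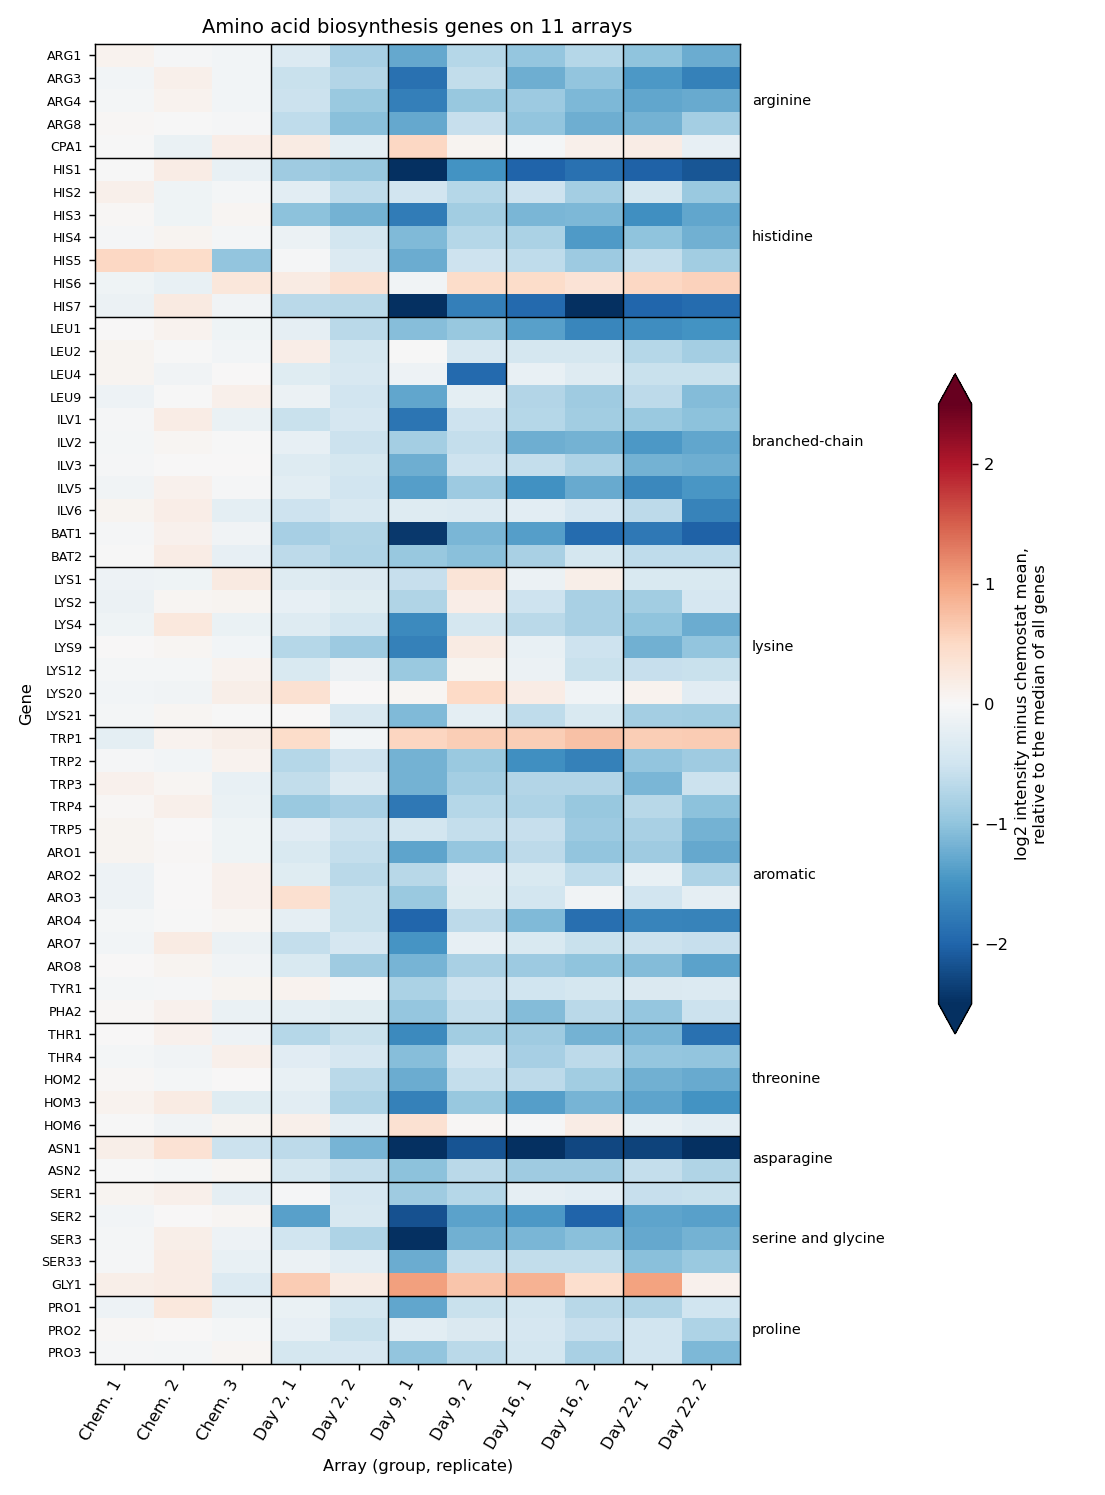
Log2 intensity of the 58 genes (rows, grouped by pathway) on the 11 arrays (columns), as a difference from each gene's chemostat mean and relative to the median of all genes; blue is lower, red higher, and colours stop at 2.5 in either direction. Blue covers most rows from day 9 on and is darkest for ASN1, HIS1 and HIS7; the red rows are few, among them TRP1 and GLY1, and the first day 9 array is darker than its partner.

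Asparagine synthesis had the lowest median of the 9 pathways at day 22. ASN1 and ASN2 encode 2 synthetases that move an amide group from glutamine to aspartate. ASN1 read 1321, 1530.4 and 844 in the chemostats, then 761 and 566 after 2 days, 191 and 287 after 9, 216 and 278 after 16, and 278 and 250.0 after 22. The arrays from day 9 on lay between 191 and 287, the lowest chemostat at 844, and the day 2 pair in the gap. At day 22 it was left at 21.4% of the chemostat mean (from 1232 ± 352, SD, n = 3, to 264 ± 19.6, n = 2), a relative log2 change of -2.41 ± 0.27 (adjusted p = 0.00019). ASN2 read 678, 664 and 726 in the chemostats, then 505 and 482 after 2 days, 345 and 465 after 9, 406 and 421 after 16, and 526 and 493 after 22. Here too the 8 retentostat arrays all lay below the chemostats, but the change at day 22 was -0.67 ± 0.16 (adjusted p = 0.047), and it passed in only 2 of the 11 fits that left out 1 array.

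Of the threonine branch, 4 of 5 genes were lower at days 9, 16 and 22, with a median of -1.23 at day 22. The enzymes act in a line: aspartate kinase (HOM3), aspartate semialdehyde dehydrogenase (HOM2), homoserine dehydrogenase (HOM6), homoserine kinase (THR1) and threonine synthase (THR4). The entry enzyme HOM3 read 664, 723 and 519 in the chemostats, then 527 and 391 after 2 days, 199 and 354 after 9, 262 and 317 after 16, and 292 and 269 after 22. HOM2 read 1145, 1085 and 1166 in the chemostats, then 999 and 748 after 2 days, 492 and 804 after 9, 780.0 and 705 after 16, and 568 and 566 after 22. THR1 read 1302, 1376 and 1216 in the chemostats, then 789 and 925 after 2 days, 438 and 763 after 9, 763 and 646 after 16, and 678 and 429 after 22. In all 3 the arrays of day 9 and later lay below every chemostat, and for THR1 and HOM2 those of day 2 did so too. The changes at day 22 were -1.50 ± 0.25 for THR1, -1.40 ± 0.25 for HOM3 and -1.23 ± 0.21 for HOM2 (adjusted p = 0.0027, 0.0041 and 0.0036), and THR4 changed by -0.97 ± 0.20 (adjusted p = 0.013). HOM6, which acts between HOM2 and THR1, was the exception, at 2886 ± 215 in the chemostats and 2897 ± 34.4 at day 22 (adjusted p = 0.98).

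Among the branched-chain genes 7 of 11 had fallen at day 9, 5 at day 16 and 7 at day 22, and no member rose. BAT1, the mitochondrial aminotransferase that makes the final step, read 1169, 1278 and 1148 in the chemostats, then 677 and 751 after 2 days, 229.8 and 587 after 9, 501 and 357 after 16, and 400.2 and 353 after 22. ILV5, the reductoisomerase of isoleucine and valine synthesis, read 3671, 4209 and 3923 in the chemostats, then 3263 and 2973 after 2 days, 1546 and 2249.7 after 9, 1496 and 1851 after 16, and 1474 and 1724 after 22. LEU1, the isopropylmalate isomerase of the leucine branch, read 1163, 1218 and 1098 in the chemostats, then 995 and 769.6 after 2 days, 567 and 651 after 9, 491 and 422 after 16, and 454 and 492 after 22. None of these retentostat arrays reached the chemostat range, and in ILV5 and LEU1 the day 2 pair was higher than every later array. At day 22 BAT1 had changed by -1.90 ± 0.32, ILV5 by -1.53 ± 0.19 and LEU1 by -1.53 ± 0.17 (adjusted p = 0.002, 0.00047 and 0.00022). ILV2, the catalytic subunit of acetolactate synthase, which commits pyruvate to the pathway, went from 1743 ± 48.6 to 796 ± 82.9 (change -1.37 ± 0.16, adjusted p = 0.00039). Its regulatory subunit ILV6 was called at day 22 too, but its arrays there stood at 1435 and 742, and the call was lost without the second. ILV3, dihydroxyacid dehydratase, changed by -1.20 ± 0.20 (adjusted p = 0.0036).

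The 2 synthases of leucine's entry step passed at no day. LEU4, the main isopropylmalate synthase, read 3635, 3216 and 3569 in the chemostats, then 2820.0 and 2769.7 after 2 days, 3240.5 and 969 after 9, 3305 and 3131 after 16, and 2708 and 2849 after 22. Apart from the second array of day 9 it stayed within 2708 and 3635, and its change at day 22, -0.55 ± 0.37, did not pass (adjusted p = 0.51). That 1 array, at 969, ran against the other members, most of which were higher there than in replicate 1. LEU9, the second synthase, read 124, 135 and 153 in the chemostats, then 124 and 104 after 2 days, 56.7 and 125 after 9, 89.1 and 84.0 after 16, and 100.4 and 77.9 after 22. Most of its retentostat arrays lay below the chemostats, with an adjusted p of 0.092 at day 22, which became 0.020 with quantile normalization. LEU2, isopropylmalate dehydrogenase, changed by -0.78 ± 0.18 at day 22 (adjusted p = 0.033). Its other 2 probe sets gave unshifted log2 changes of -0.81 and -1.65, against -0.54 for the one used, so the size for LEU2 depends on the probe set. Threonine deaminase, ILV1, which starts isoleucine, passed only at day 9 (-1.17 ± 0.31, adjusted p = 0.018). At day 22 its change was -0.97 ± 0.31, which passed with quantile normalization and with median scaling (adjusted p = 0.025 and 0.018).

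In the histidine pathway 5 of 7 genes were lower on days 9 and 16, and 4 on day 22, when 1 was higher. HIS1, the phosphoribosyltransferase that starts the pathway, read 1098, 1266 and 999.8 in the chemostats, then 603 and 610.4 after 2 days, 156 and 426 after 9, 301 and 346 after 16, and 317 and 307 after 22. HIS7, which closes the imidazole ring, read 452, 579 and 483 in the chemostats, then 316 and 327 after 2 days, 89.4 and 165 after 9, 141 and 64.2 after 16, and 146 and 158 after 22. HIS3, the dehydratase that follows, read 396, 356 and 412 in the chemostats, then 192 and 179 after 2 days, 118 and 229.9 after 9, 189 and 201 after 16, and 155 and 189.9 after 22. In all 3 the retentostat arrays stayed clear of the chemostats already at day 2, although no gene of the pathway passed on that day. The changes at day 22 were -2.07 ± 0.32 for HIS1, -1.96 ± 0.32 for HIS7 and -1.41 ± 0.24 for HIS3 (adjusted p = 0.0014, 0.0019 and 0.0031). HIS4, a protein of several activities in the pathway, changed by -1.11 ± 0.20 (adjusted p = 0.0056). HIS2, histidinol phosphatase, passed at days 9 and 16 but not at day 22 (adjusted p = 0.07). There it passed with quantile normalization and with median scaling (adjusted p = 0.015 and 0.022). HIS5, the aminotransferase, passed at none, with 1 chemostat at 96.1 and the others at 254 and 265. HIS3 has a second, dim probe set, which gave an unshifted change of -0.53 against -1.18.

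Arginine synthesis was lower in 4 of 5 genes at each of days 9, 16 and 22. ARG3 encodes ornithine carbamoyltransferase, ARG1 argininosuccinate synthetase and ARG4 the lyase that releases arginine. ARG3 read 658, 743 and 669 in the chemostats, then 468 and 439.5 after 2 days, 193 and 486 after 9, 322 and 393 after 16, and 294 and 256 after 22. ARG1 read 3425, 3178 and 3170.3 in the chemostats, then 2574 and 1922 after 2 days, 1379.5 and 2152 after 9, 1810.3 and 2241 after 16, and 1864 and 1656 after 22. ARG4 read 1745, 1916 and 1770.5 in the chemostats, then 1246 and 1005 after 2 days, 567 and 1017 after 9, 1041 and 936 after 16, and 849 and 915 after 22. In each, all 8 retentostat arrays lay under the chemostats, with the first array of day 9 lowest. The changes at day 22 were -1.56 ± 0.30, -1.12 ± 0.21 and -1.27 ± 0.22 (adjusted p = 0.0053, 0.0069 and 0.0041), and ARG8, acetylornithine aminotransferase, changed by -1.01 ± 0.23 (adjusted p = 0.018). CPA1, the small subunit of the carbamoyl phosphate synthetase that feeds the pathway, did not follow. It stood at 3414 ± 442 in the chemostats and 4010.4 ± 655 at day 22 (adjusted p = 0.38), and its highest reading, 5002, was on the same day 9 array on which the other 4 arginine genes were lowest.

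The aromatic pathway had 9 of 13 genes lower at day 9, 6 at day 16 and 6 at day 22, with 1 higher each time. ARO3 and ARO4 are the isozymes of the entry step, inhibited by phenylalanine and by tyrosine. ARO1 carries out the next several steps, and ARO8 is an aminotransferase that ends phenylalanine and tyrosine synthesis. ARO4 read 1458, 1490.2 and 1598 in the chemostats, then 1289 and 1080.4 after 2 days, 391 and 1036 after 9, 764 and 463 after 16, and 554 and 571 after 22. ARO1 read 1712, 1657 and 1545 in the chemostats, then 1264 and 1136 after 2 days, 676 and 906 after 9, 1120.0 and 933 after 16, and 1012 and 808 after 22. ARO8 read 1501, 1556 and 1449 in the chemostats, then 1159.5 and 859 after 2 days, 686 and 921 after 9, 864 and 841 after 16, and 821 and 711 after 22. All retentostat arrays of the 3 genes lay below their chemostats, and ARO4 dropped furthest, to 37.1% of the chemostat mean at day 22. The changes were -1.66 ± 0.34, -1.09 ± 0.18 and -1.21 ± 0.18 (adjusted p = 0.0069, 0.0036 and 0.0019).

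On the tryptophan side TRP2 and TRP3, the subunits of anthranilate synthase, and TRP5, tryptophan synthase, were lower at day 22, by -0.93 ± 0.16, -0.84 ± 0.22 and -0.99 ± 0.16 (adjusted p = 0.0063, 0.044 and 0.0037). TRP4, the next transferase, passed at day 9 only. With quantile normalization and with median scaling it passed at day 22 too (adjusted p = 0.014 and 0.018). TRP1, the isomerase of the step after TRP4, ran the other way and read 466, 591 and 629.7 in the chemostats, then 763 and 559.8 after 2 days, 832 and 923 after 9, 928 and 1054 after 16, and 984 and 1037 after 22. Apart from the second array of day 2, every retentostat reading was above the chemostats, and the changes on days 9, 16 and 22 were 0.59 ± 0.19, 0.69 ± 0.19 and 0.62 ± 0.19 (adjusted p = 0.02, 0.0059 and 0.0044). It passed at day 22 in all 11 fits that left out 1 array, and under both other scalings, but not without the 2 arrays of lowest actin ratio (adjusted p = 0.062) nor with the ratio as a covariate (0.16). TRP1 is known as the TRP gene outside the general control by Gcn4, and whether that bears on its course here was not tested. Chorismate synthase (ARO2) and chorismate mutase (ARO7) passed at no day. TYR1, prephenate dehydrogenase, passed at day 9 only, and PHA2, prephenate dehydratase, at days 9 and 16. With quantile normalization both passed at day 22 (adjusted p = 0.041 and 0.0086). With median scaling PHA2 passed there (0.0086) and TYR1 did not (0.052).

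Serine synthesis was lower in 4 of 5 genes at day 9, 2 at day 16 and 3 at day 22, and 1 gene was higher on all 3 days. SER3 and SER33 encode the dehydrogenases that take 3-phosphoglycerate into the pathway, and SER2 the phosphatase that completes it. SER3 read 240.4, 276 and 236 in the chemostats, then 176 and 155 after 2 days, 44.4 and 118 after 9, 123 and 138 after 16, and 118 and 132 after 22. SER33 read 347, 401 and 320.5 in the chemostats, then 319 and 310.1 after 2 days, 154 and 254 after 9, 250.3 and 264 after 16, and 197 and 225 after 22. SER2 read 224, 233 and 247 in the chemostats, then 91.7 and 187 after 2 days, 53.4 and 99.4 after 9, 94.0 and 66.1 after 16, and 108 and 109.7 after 22. For these genes no retentostat array reached the chemostats, though SER2 at day 2 was split between 91.7 and 187. The changes at day 22 were -1.23 ± 0.31, -0.98 ± 0.21 and -1.34 ± 0.32 (adjusted p = 0.026, 0.014 and 0.016). SER1, the aminotransferase between them, passed at day 9 alone (-0.79 ± 0.17, adjusted p = 0.0065). With quantile normalization and with median scaling SER1 passed at day 22 too (adjusted p = 0.044 and 0.02).

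GLY1, threonine aldolase, which makes glycine by splitting threonine, rose. It read 589.6, 598 and 429 in the chemostats, then 827 and 651 after 2 days, 1114 and 933 after 9, 1056 and 803 after 16, and 1228 and 689 after 22. All 8 retentostat arrays lay above the chemostats, the only member for which this was so, beside 865 of all 5597 genes tested. The change of GLY1 was 0.87 ± 0.26 at day 9 and 0.56 ± 0.26 at day 22 (adjusted p = 0.017 and 0.032). The day 22 arrays differed by more than the mean rise, and with quantile normalization or median scaling the call at that day was lost (adjusted p = 0.0996 and 0.18). HIS6, the isomerase before HIS7, was the last of the 3 that rose, from 24.3 ± 4.98 to 41.4 ± 2.26 (0.55 ± 0.22, adjusted p = 0.014). That is the dimmest member, and its call was lost with quantile normalization (adjusted p = 0.096).

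Of 7 lysine genes 1 was lower at day 9, 0 at day 16 and 1 at day 22, in both cases LYS4, homoaconitase. Of all genes 15.6%, 12.8% and 10.8% were lower on those days. At an unadjusted p under 0.05 limma gave 2, 0 and 2, beside 2700, 2735 and 2871 of all 5597 genes in either direction. LYS4 read 515, 663 and 513 in the chemostats, then 447 and 428 after 2 days, 191 and 445 after 9, 379 and 362 after 16, and 320.5 and 286 after 22, a change of -1.12 ± 0.29 at day 22 (adjusted p = 0.029), and the call was lost without either array of day 22. LYS20, a homocitrate synthase of the entry step, read 4390.2, 4358 and 5236 in the chemostats, then 6044 and 4906 after 2 days, 4941 and 7091 after 9, 5757 and 4966 after 16, and 5688 and 4606 after 22. Its isozyme LYS21 read 2084, 2206 and 2194 in the chemostats, then 2164 and 1724 after 2 days, 1032 and 1970.3 after 9, 1509 and 1874 after 16, and 1389 and 1426 after 22. LYS20 stayed above the 2 lower chemostats throughout, while 7 of the 8 retentostat arrays of LYS21 lay below all of them, yet neither passed at day 22 (adjusted p = 0.6 and 0.061). With quantile normalization or median scaling LYS21 did pass (adjusted p = 0.046 and 0.01). The replicates of day 9 differed most here. LYS9, a saccharopine dehydrogenase, read 139 and 539.9 there against 425 to 448 in the chemostats, a log2 gap of 1.88 between the 2 arrays. LYS1, LYS2, LYS9 and LYS12 changed by -0.38 ± 0.26, -0.64 ± 0.26, -1.09 ± 0.41 and -0.56 ± 0.27 at day 22, none of which passed. Under the other scalings LYS9 did pass at that day, with quantile normalization (adjusted p = 0.037) and with median scaling (0.041). LYS2 passed with median scaling only (adjusted p = 0.044). In those fits 19.7% and 19.8% of all genes were lower. Whether lysine differed from the other pathways was not tested.

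Proline synthesis, PRO1 to PRO3 in order of action from glutamate, had the smallest median fall at day 22, -0.62. PRO1 and PRO3 were lower at day 9 (-0.92 ± 0.24 and -0.82 ± 0.20, adjusted p = 0.016 and 0.013). None of the 3 passed at day 16, where limma gave 2 at an unadjusted p under 0.05, beside 2735 of all 5597 genes. Only PRO3 passed at day 22. With quantile normalization all 3 passed there (adjusted p = 0.036, 0.012 and 0.015 for PRO1, PRO2 and PRO3). With median scaling they did so too (0.038, 0.013 and 0.008). In those fits 19.7% and 19.8% of all genes were lower. PRO3 read 1082, 1066 and 1174 in the chemostats, then 818 and 869 after 2 days, 575 and 749 after 9, 866 and 716 after 16, and 911 and 612 after 22. All its retentostat arrays lay below the chemostats, but the readings of day 22, 911 and 612, spanned most of the retentostat range. The change was -0.80 ± 0.20 (adjusted p = 0.039), and -0.49 without replicate 2 of that day, where it did not pass.

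**Figure D3:**
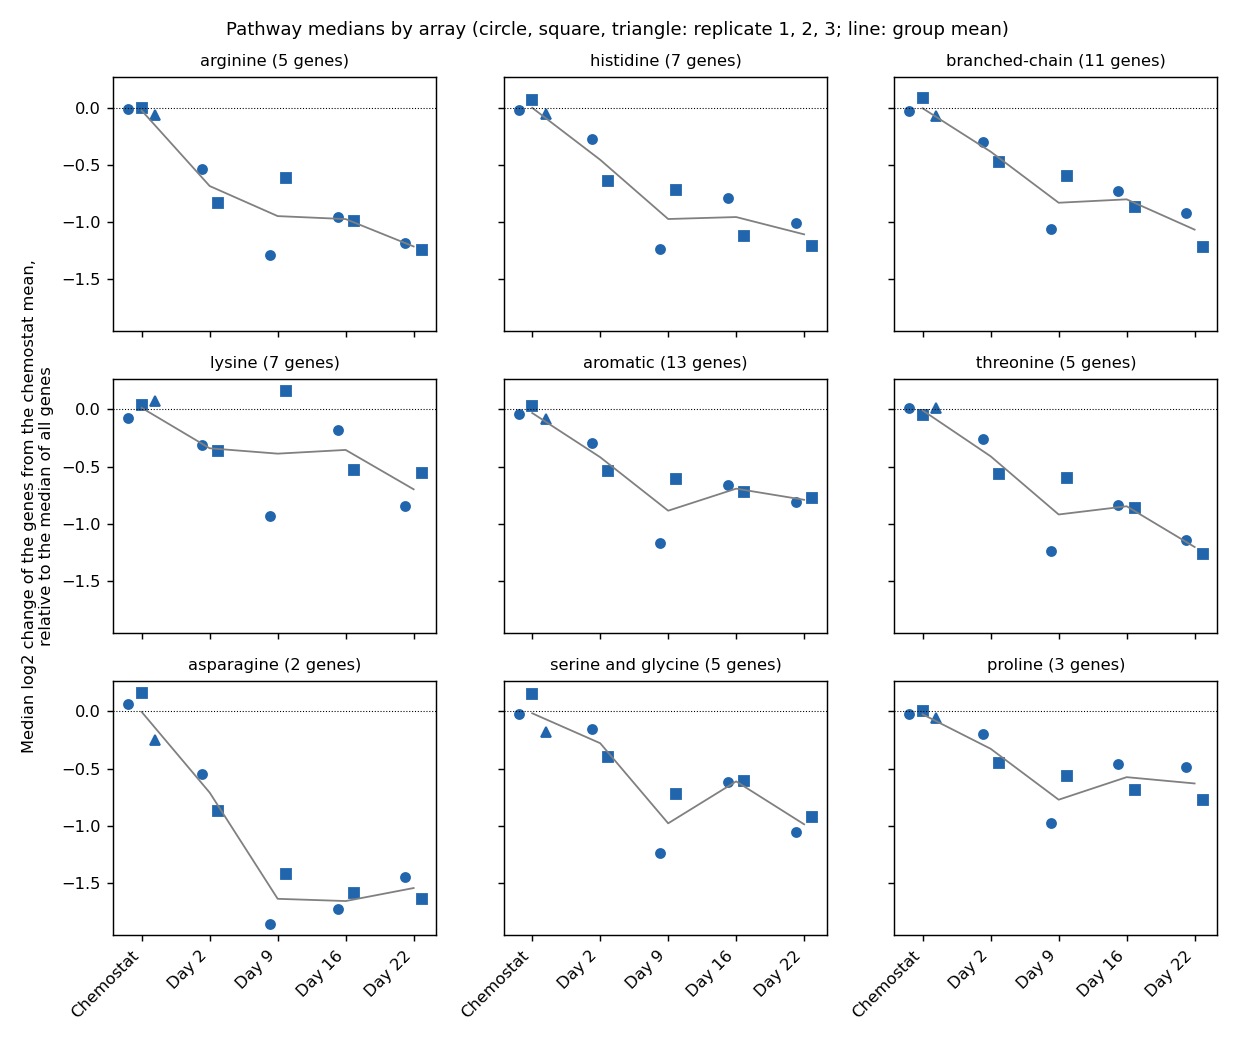
Median log2 change of the genes of each of the 9 pathways on each array, from the chemostat mean and relative to the median of all genes; points are arrays (circle, square and triangle for replicates 1, 2 and 3), the line joins group means and the dotted line is 0. All pathways lie below 0 from day 2 on except lysine, whose second day 9 array stands at 0.16; asparagine reaches -1.86 and proline and lysine stay shallowest at day 22.

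Set side by side at day 22, the pathway medians ran from -1.54 for asparagine, through -1.23 for threonine, -1.16 for the branched-chain genes, -1.12 for arginine and -1.11 for histidine, to -0.98 for serine and glycine, -0.84 for the aromatic genes, -0.64 for lysine and -0.62 for proline. The 2 arrays of that day lay 0.04 to 0.30 apart in these medians, and neighbours in the order 0.02 to 0.31 apart, so most places in it are not settled. In an F test over the 5 groups, 34 of the 58 members passed, beside 39.5% of all genes, and these were 4 of 5 arginine, 4 of 7 histidine, 6 of 11 branched-chain, 10 of 13 aromatic, 4 of 5 threonine, 2 of 2 asparagine and 4 of 5 serine and glycine genes. No lysine or proline gene was among them. Without replicate 1 or 2 of the chemostats the count was 20 or 18.

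**Figure D4:**
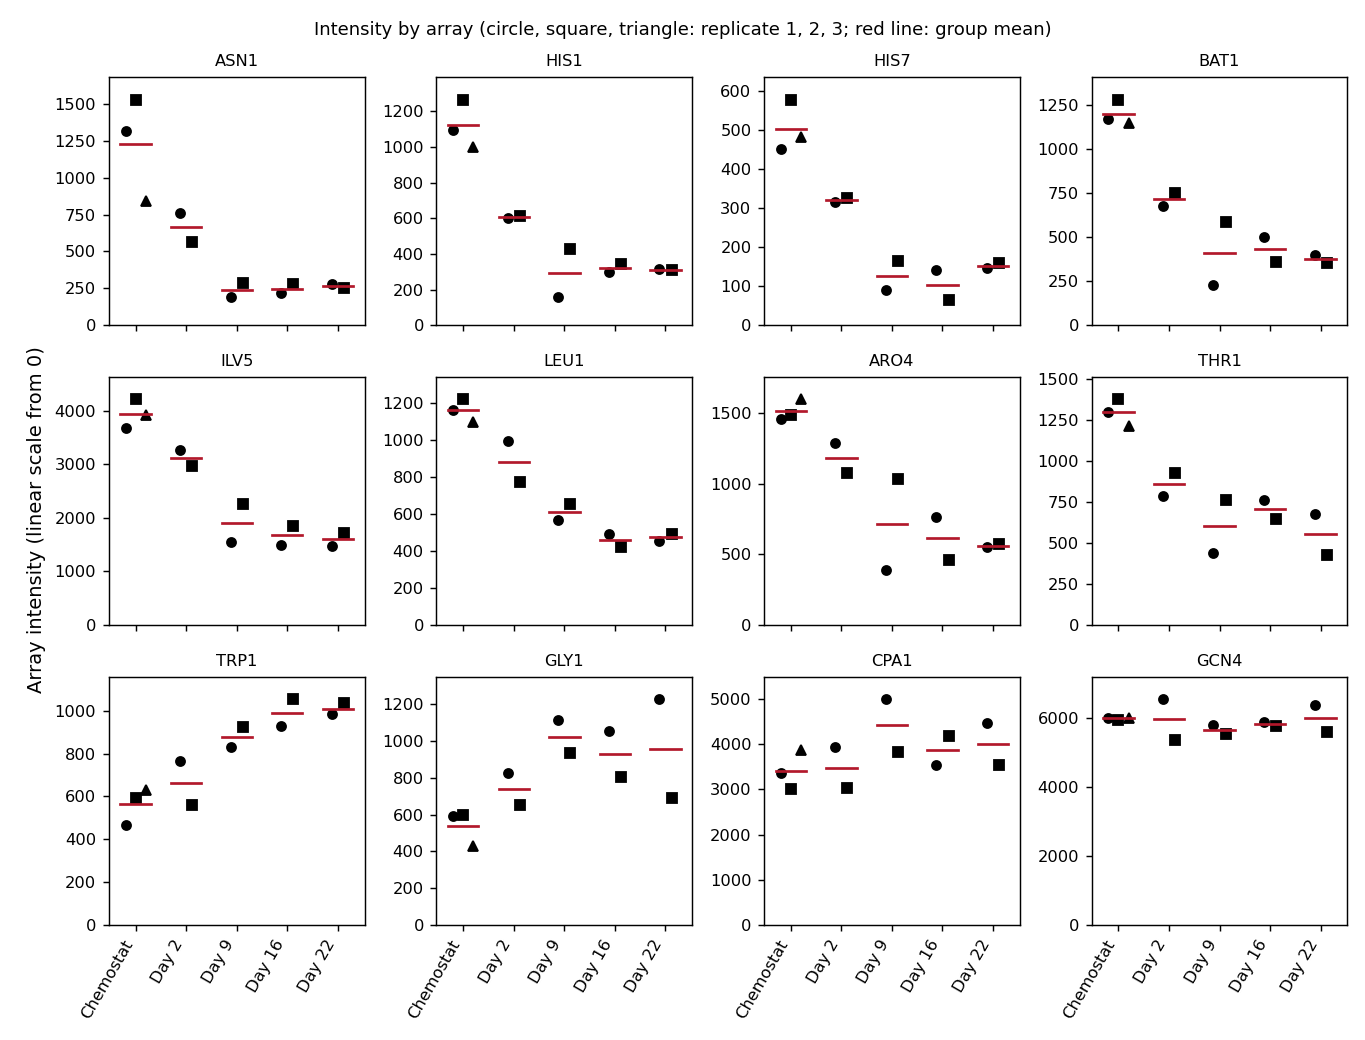
Array intensity on a linear axis from 0 for 12 genes in the 5 groups; points are arrays (circle, square and triangle for replicates 1, 2 and 3) and red lines are group means. ASN1, HIS1, HIS7, BAT1, ILV5, LEU1, ARO4 and THR1 step down from the chemostats, TRP1 and GLY1 step up, CPA1 keeps overlapping the chemostats, and GCN4 differs little between groups, with the arrays of days 9 and 16 just below the chemostats.

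The median change was nearly as large at day 9 (-0.88) as at day 22 (-0.95), but the 2 arrays of day 9 stood apart, at -1.17 and -0.60. Few members differed between retentostat days. Day 9 against day 2 gave 2 lower members and 0 higher, where 2.25% of all genes were lower and 3.56% higher. They were ASN1 (-1.52 ± 0.30, adjusted p = 0.02) and HIS7 (-1.43 ± 0.35, adjusted p = 0.042). Without replicate 2 of day 9 that comparison called 28 members, without replicate 1 it called 2, and without either array of day 2 it called 0. Day 22 against day 2 gave 4 lower and 0 higher, beside 3.23% and 13.5% of all genes. These were ASN1 (-1.50 ± 0.30), ILV5 (-1.15 ± 0.21), LEU1 (-1.07 ± 0.18) and ILV2 (-0.99 ± 0.18), with adjusted p = 0.014, 0.011, 0.0089 and 0.013. So 3 of the 4 were branched-chain genes. Without replicate 1 of day 2 the count was 0, without either array of day 22 it was 2, without either array of day 9 it was 13, and it was 0 in both fits that took the actin ratio into account. At an unadjusted p under 0.05, 18 members were lower and 0 higher at day 9 than at day 2, beside 1454 of all 5597 genes. At day 22 against day 2, 15 were lower and 1 higher, beside 1837 of all genes. These counts of all genes hold both directions, so they cannot be set beside the lower members alone.

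An F test over the 4 retentostat days called 6 members, ASN1, LEU1, TRP2, HIS7, ILV5 and ILV2, beside 11.8% of all genes. TRP2 did not follow a steady course. It read 691, 672 and 779 in the chemostats, then 436 and 523 after 2 days, 323 and 402 after 9, 265 and 249 after 16, and 416 and 463 after 22, and so was lowest at day 16 and back near the day 2 level at day 22. LEU1, ILV2 and ILV5 in contrast had their lowest means at day 16 or 22. No member was called by this test in every fit that left out 1 array. The count was 0 without replicate 1 of day 2 or replicate 2 of day 22, 13 or 25 without replicate 1 or 2 of day 9, and 1 or 2 in 6 other such fits.

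Where 2 genes encode the same step, their signals changed unequally in several pairs. Because each probe set has its own response, only the change of the log2 ratio from the chemostats is given, and none was tested. The ratio of ASN1 to ASN2 stood at -0.20 and -0.56 at day 2 and at -1.77 to -1.40 on the 6 later arrays, against -0.58 to 0.41 in the chemostats, so the later arrays lay below that range and those of day 2 within it. BAT1 over BAT2, the mitochondrial against the cytosolic aminotransferase, stood at -1.15 and -1.39 at day 22, and BAT2 itself read 446, 508 and 398 in the chemostats, then 284 and 278 after 2 days, 237 and 235 after 9, 278 and 372 after 16, and 333 and 347 after 22. BAT2 was lower at days 9 and 16 and read closer to the chemostats at day 22, with no call there (adjusted p = 0.08, but 0.0092 with quantile normalization). ARO3 over ARO4 moved up, to 1.17 and 1.45 at day 22, as ARO4 fell while ARO3 passed at no day. ARO3 read 125, 136 and 151 in the chemostats, then 181 and 97.7 after 2 days, 74.0 and 120.1 after 9, 108 and 146 after 16, and 113 and 141 after 22, below the chemostats on both arrays of day 9 and overlapping them on the other days. LYS20 over LYS21 was also up, by 0.30 to 1.16 on every retentostat array. SER3 over SER33 was down on all 8 retentostat arrays but near its start at day 22, -0.23 and -0.26. LEU4 over LEU9 showed no common direction at day 9, where the replicates lay at 1.17 and -1.71. These paralogs are alike in sequence, and how far a probe set reads its partner's transcript was not tested.

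**Figure D5:**
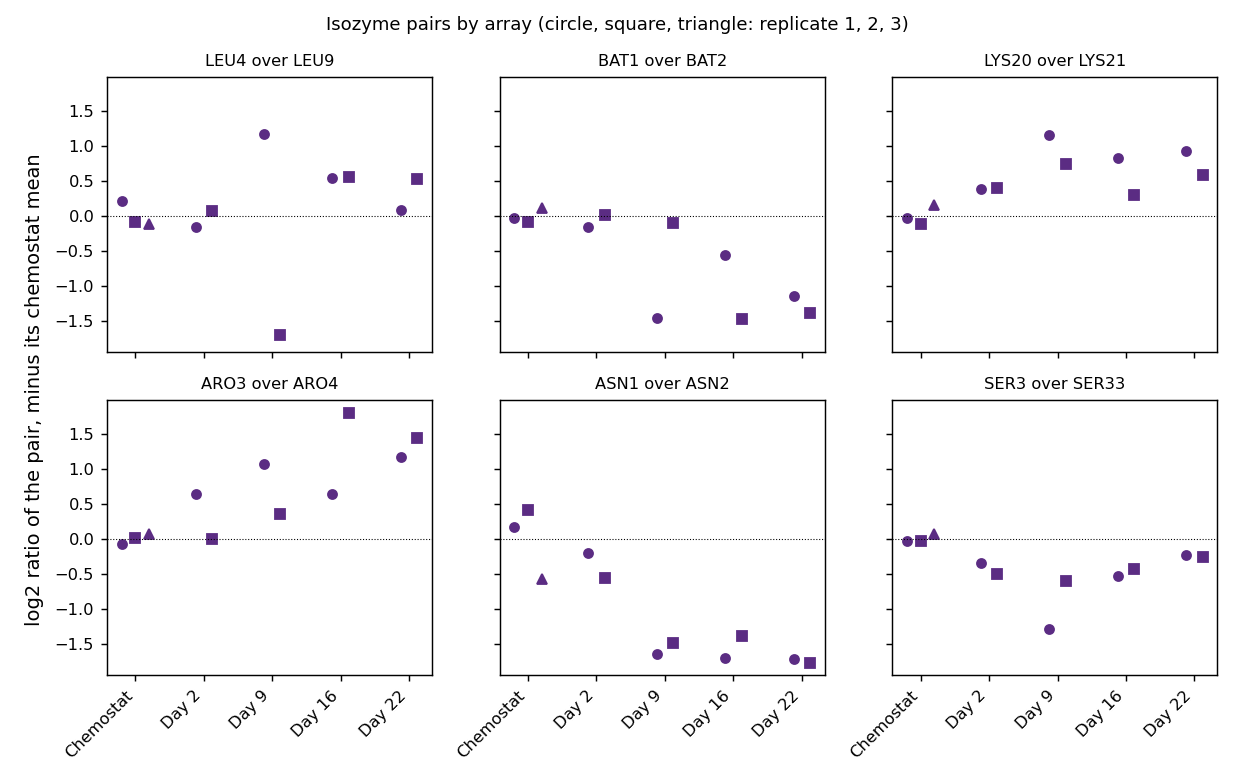
Log2 ratio of the 2 genes of each isozyme pair on each array, minus the pair's mean in the chemostats; points are arrays (circle, square and triangle for replicates 1, 2 and 3). ASN1 over ASN2 and BAT1 over BAT2 end below 0 at day 22 (means -1.74 and -1.27), ARO3 over ARO4 and LYS20 over LYS21 end above it (1.31 and 0.76), and the other pairs lie within 0.31 of it.

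Of 12 listed enzymes and carriers next to these pathways, 10 had a probe set of their own, and at day 22 there were 2 lower and 2 higher, with a median of -0.41, beside 10.8% and 31.8% of all genes. ARG7, the ornithine acetyltransferase of arginine synthesis, was lower already at day 2 and read 375, 342 and 326 in the chemostats, then 140.1 and 132 after 2 days, 93.2 and 138 after 9, 168 and 202 after 16, and 126 and 181 after 22. Its change was -1.39 ± 0.21 at day 2 and -1.43 ± 0.21 at day 22 (adjusted p = 0.017 and 0.0013), with no overlap between the chemostats and the retentostats. SHM2, the cytosolic serine hydroxymethyltransferase, fell (-1.20 ± 0.26, adjusted p = 0.012). AGX1, which makes glycine from glyoxylate and alanine, rose the most of the 10, and read 270.2, 246 and 506 in the chemostats, then 656 and 880.0 after 2 days, 1761 and 1172 after 9, 1518 and 1430.5 after 16, and 1557 and 1405 after 22. Its change was 1.96 ± 0.30 at day 22 (adjusted p = 0.00028), and every retentostat array exceeded every chemostat. LYS5, which activates the Lys2 enzyme, rose too (0.47 ± 0.17, adjusted p = 0.0066).

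Of 10 genes of amino acid breakdown, 3 were higher and 1 lower at day 22, with a median of 0.09. These shares are near those of all genes at that day, 31.8% and 10.8%. PUT1, proline oxidase, read 42.1, 35.3 and 62.4 in the chemostats, then 46.6 and 75.2 after 2 days, 107 and 96.7 after 9, 148 and 185 after 16, and 204 and 184 after 22. It stood clearly above the chemostats from day 9 on, with a change of 1.87 ± 0.26 (adjusted p = 0.00019). CHA1, the serine and threonine deaminase, rose by 0.83 ± 0.20 from a dim start of 22.1 ± 3.23 (adjusted p = 0.0018). ARO9, the second aromatic aminotransferase, was called higher on its unshifted change of 0.65 ± 0.24 (adjusted p = 0.046). Its rise relative to the median gene was smaller, 0.41, and was not tested. ASP1, cytosolic asparaginase, fell with the asparagine synthetases (-1.03 ± 0.19, adjusted p = 0.006). The arginine breakdown genes CAR1 and CAR2 did not pass at day 22 (adjusted p = 0.46 and 0.59).

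Of 15 regulators, 11 did not pass at day 22. GCN4 read 6006, 5955 and 6019 in the chemostats, then 6553 and 5375 after 2 days, 5795 and 5539.8 after 9, 5890.5 and 5770.1 after 16, and 6384 and 5603 after 22. The arrays of days 2 and 22 spanned the chemostats and those of days 9 and 16 lay below them, but by little, and it passed at no day (adjusted p = 0.99 at day 22). This says nothing of the protein. LEU3, the regulator of leucine synthesis, was close to its start (0.02 ± 0.17, adjusted p = 0.25). The others were 2 lower and 2 higher, beside 10.8% and 31.8% of all genes. LYS14, the activator of the lysine genes, fell from 67.2 ± 7.49 to 38.4 ± 3.89 (-1.04 ± 0.22, adjusted p = 0.013). ARG82, a kinase of inositol phosphates needed for arginine repression, rose (1.34 ± 0.22, adjusted p = 0.00037), as did PHO2, a partner of Bas1 at histidine genes (0.49 ± 0.17, adjusted p = 0.007). GCN1, which helps sense uncharged tRNA, was called lower (-1.67 ± 0.25), but its several probe sets differed in value, so this call is uncertain.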

How the data were processed

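The deposited values are linear array intensities (Affymetrix yeast arrays), made with GCOS 1.2 per the submitters' processing notes. The sources used here do not give its settings. The authors' scaling was kept. Of 9335 probe sets, 60 were controls, and the 6504 that carry 1 gene were used. Values under 12 were set to 12 before the log2 was taken. A gene with several probe sets was given by the one with the highest mean log2 value. Genes that never exceeded this floor, 59 in all, were left out, which left 5597 to test.

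A linear model with 1 mean per group was fitted over all 11 arrays in R 4.3.3 with limma 3.58.1, which had 6 residual degrees of freedom and added 4.85 from its prior. Two-sided p-values were adjusted by Benjamini-Hochberg over all genes within each comparison, at 0.05. Retentostat arrays of different days were treated as independent although they share cultures. The number of arrays limits the precision. Member lists, pathways, isozyme pairs and tests were chosen with earlier results of these data known, and day 9 against day 2 was added after seeing them. Values on every array are given for up to 3 members per pathway with the largest changes at day 22 among those that passed, for the isozyme pairs and for GCN4. Such values for TRP1, GLY1, TRP2, AGX1, ARG7 and PUT1 were chosen after they were seen.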

Additional observations from a re-analysis of the deposited data

Results flagged for a closer look

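For 4 members the change from the chemostats at day 22 differed from that at day 2 in limma's test of day 22 against day 2. The difference was -1.50 for ASN1, -1.15 for ILV5, -1.07 for LEU1 and -0.99 for ILV2, on the log2 scale relative to the median of all genes. In each of the 4, both arrays of day 22 lay below both arrays of day 2. The 4 were picked by a test of those same arrays, so this arrangement adds no support to it. None of these calls was kept in every fit that left out 1 array.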

How the results depend on the processing

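For the 29 genes named by rule, the 24 alternatives gave 696 values at day 22, of which 613 kept their direction and side of the threshold, 70 lost the call (34 of them in the fits on the actin ratio) and 13 gained one. Counts of members called moved by more than 1.5 times only in the cases that follow. At day 2, where 0 members were called, quantile normalization, median scaling, a mean of at least 50 and the replicate block each gave 1, and leaving out 1 array gave 0 to 6. Leaving out 1 array gave 19 to 43 calls at day 9, 12 to 39 at day 16, 21 to 41 at day 22, 0 to 13 for day 22 against day 2, 18 to 44 for the F test over 5 groups, 0 to 25 for that over 4 days and 0 to 28 for day 9 against day 2. A group left with 1 array was assumed to vary like the others, and the share of all genes called moved in these fits too. Members called in every such fit numbered 18 of 40 at day 9, 9 of 30 at day 16, 18 of 35 at day 22 and 17 of 34 in the F test over 5 groups, and 0 for the rest. Without the 2 arrays of lowest actin ratio the counts were 11 at day 16, 14 at day 22, 11 in the F test over 5 groups and 0 for day 22 against day 2, day 9 against day 2 and the F test over 4 days. With the ratio as a covariate they were 5 at day 22, 20 in the F test over 5 groups and 0 for day 22 against day 2 and the F test over 4 days. Quantile normalization gave 11 and median scaling 12 for day 22 against day 2, and 4 and 5 for day 9 against day 2. Day 9 against day 2 also gave 1 with no floor, 6 with a mean of at least 50 and 0 with only the arrays compared, which gave 1 in the F test over 4 days. The cause was not tested, apart from the fewer arrays in some fits.

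The replicate numbers were not taken to pair the retentostat arrays, since the labels do not state a pairing. The correlation of deviations between same-numbered arrays of different days, across genes, was 0.07 to 0.39. Noise of single arrays lowers such a correlation, so it cannot tell whether same-numbered arrays share a culture. With the replicate block, 42 members were called at day 9, 32 at day 16, 39 at day 22 and 6 for day 9 against day 2, where the random block gave 6 too.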
